A study of Mus musculus with 8 samples.

Results

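The 7 genes described here were the 4 myogenic regulatory factors Myf5, Myod1, Myf6 and Myog and the 3 myocyte enhancer factor genes Mef2a, Mef2c and Mef2d. They were chosen by name as the core transcription factors of skeletal myogenesis and made up 7 of the 24980 gene symbols in the deposited table. All 7 had enough counts to be tested among 17582 genes. The fourth mouse Mef2 gene, Mef2b, was read separately as a related gene.

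RNA was sequenced from mouse skeletal myogenic cells in 4 groups, each with 2 libraries that the submitters gave as biological replicates. TF cells were progenitors taken by cell sorting from teratomas, tumors of many tissues that pluripotent cells form, and TE cells were the same kind of progenitor cultured to passage 8. SF cells were freshly isolated endogenous satellite cells, the stem cells of adult skeletal muscle, and SE cells were satellite cells at passage 8. The comparisons ask how culture expansion changed each kind of cell and how the cells of the 2 origins differed before and after it. The teratomas grew from EGFP-labeled E14 embryonic stem cells, a male mouse line in common use, in irradiated and cardiotoxin-injured tibialis anterior muscles of NSG-mdx4Cv mice, which lack a working immune system and dystrophin. The progenitors were sorted as EGFP+, CD31- and CD45- cells that carried α7-integrin and VCAM-1. Both TF and TE therefore rest on 1 embryonic stem cell line. The strain and age of the satellite cell donors, and whether animals were pooled, are not given in the sources used here. Expanded cells grew on gelatin in a medium that favors proliferation.

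The myogenic regulatory factors are basic helix-loop-helix proteins that pair with E proteins and bind the E-box, CANNTG, in muscle genes. MYF5 and MYOD1 commit cells to the muscle lineage and are expressed in proliferating myoblasts, MYOG drives terminal differentiation, and MYF6, also called MRF4, acts in the early embryo and again in maturing fibers. MEF2 proteins are MADS-box factors that bind an A/T-rich site, act together with the myogenic regulatory factors at many muscle genes, and are held inactive by class IIa histone deacetylases.

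Promoters of Myog and Mef2c are shown because these genes rose most among the members in SE versus SF and because both windows hold the letters that the 2 families bind. RefSeq windows of GRCm38.p6, from 250 bases before to 50 bases after a start, matched 5 of the 7 members. The Myog stretch, chr1:134289754-134289988 on the + strand, ends just before the gene's GENCODE M21 start and holds 1 E-box and 1 MEF2 core, here TA, 4 bases that are each A or T, and TA. The Mef2c stretch, chr13:83503784-83504033 on the + strand, precedes the most upstream of its 3 RefSeq starts and holds 2 E-boxes and 1 MEF2 core. Capitals mark these motifs in lines read 5′ to 3′. Both motifs read the same on either strand and did not overlap.
Myog: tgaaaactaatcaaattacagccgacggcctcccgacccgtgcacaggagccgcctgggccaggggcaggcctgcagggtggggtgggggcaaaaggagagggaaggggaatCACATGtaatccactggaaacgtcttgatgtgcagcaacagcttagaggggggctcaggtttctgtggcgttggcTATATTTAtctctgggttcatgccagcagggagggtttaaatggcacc
Mef2c: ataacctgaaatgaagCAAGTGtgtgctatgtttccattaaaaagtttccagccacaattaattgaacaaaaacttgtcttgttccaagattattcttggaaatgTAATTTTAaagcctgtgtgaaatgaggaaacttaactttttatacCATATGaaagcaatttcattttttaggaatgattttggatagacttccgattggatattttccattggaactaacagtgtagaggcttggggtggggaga
Of 32841 mouse promoter windows of 300 bases, 72.3% held CANNTG, 9.32% held the MEF2 core, and 7.01% held both. The Myf5 and Mef2d windows held neither motif, and the Mef2a window held 1 MEF2 core at its start and no E-box. The full Myog window held 2 E-boxes. The 1 not printed above was CAGTTG, from base -12 relative to the RefSeq start, past the end of the stretch shown. Of the Mef2c windows not shown, window 2 held neither motif, and window 3 held 1 E-box and no MEF2 core. These matches are letters in a window and were looked for after the sequences had been seen.

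Values below are normalised counts, the estimated count of a gene in a library divided by that library's median-ratio size factor. Fold changes are fitted log2 values with their SE from edgeR's quasi-likelihood test on all 8 libraries with TMM scaling, adjusted by Benjamini-Hochberg over 17582 genes. A gene was said to rise, fall or pass when the adjusted p was below 0.05 and the fold change past the minimum stated with the processing. Every group had n = 2, so each gene had 4 residual degrees of freedom over the 4 groups, and its spread was drawn toward that of other genes.

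Library totals ran from 11930881 to 21146554 counts, and the members took at most 0.287% of a library. The SE replicates differed most (chi-square per degree of freedom 93.0, against 12.1 in TE). The genes of the 2 sorted surface proteins were present in every library, Itga7 at 2350 to 5760 and Vcam1 at 3860 and 5200 in TF, 580 and 600 in TE, 5380 and 6580 in SF, and 1790 and 1040 in SE, so that Vcam1 was lower in every expanded library than in any fresh one. Pax7, which marks satellite cells, stood at 1170 to 4910. Of the 10 listed satellite cell markers, 2 rose and 6 fell in TE versus TF, where 9.86% of all genes rose and 16.2% fell. In SE versus SF 2 rose and 7 fell, beside 20.9% and 19.8% of all genes. Calcr, 1 of these markers, was at 0 in every TE and SE library, against 534 and 801 in TF and 1431 and 1428 in SF. The fibro-adipogenic, endothelial, haematopoietic and Schwann cell lists took a larger share in the fresh libraries of each origin, whereas the mature fiber list took a larger share after expansion. The 7 pericyte and smooth muscle markers made up 0.119% to 0.121% in TF, 0.17% to 0.171% in TE, 0.0934% to 0.112% in SF and 0.0459% to 0.164% in SE. Of these 7, 1 rose and 5 fell in TE versus TF, and 1 rose and 6 fell in SE versus SF. Most of the TE sum was Acta2, at 22590 and 22386 of 24440 and 24210 normalised counts. The 7 fibro-adipogenic markers made up 0.496% to 0.577% of the counts in TF and 0.131% to 0.201% in SF, but at most 0.00165% in TE and 0.00851% in SE. The 7 endothelial markers made up 0.00771% to 0.0267% in TF and 0.0283% to 0.0327% in SF, and 4 of them in TE and 5 of them in SE were at 0 in both libraries. The 8 haematopoietic markers reached 0.0268% in 1 TF library and stayed at or below 0.00444% in the other libraries. The 9 mature fiber markers made up 0.392% and 1.02% of the 2 SE libraries and 0.189% to 0.211% in TE. Each of these moved with a comparison below, and their part in the results was not tested. In such bulk libraries, fewer cells of a type and less RNA per cell cannot be told apart.

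Among the commitment factors, Myf5 was high in freshly isolated cells of both origins and low after expansion, as the plot of levels by library shows. Its level was 802 and 1366 in TF, 1482 and 1724 in SF, 144 and 64.0 in TE, and 75.8 and 118 in SE. Every fresh library stood above every expanded one, whereas the 2 expanded groups overlapped. Myf5 changed by -3.33 ± 0.43 on the log2 scale in TE versus TF (edgeR's quasi-likelihood test, adjusted p = 0.00045), a 10.03-fold decrease, and by -3.86 ± 0.44 in SE versus SF (adjusted p = 0.000128), a 14.5-fold decrease. Without TE replicate 1 the first change was -3.996. The difference between the 2 changes, 0.54 ± 0.57, did not pass (adjusted p = 0.600), nor did TF versus SF (-0.41 ± 0.39, adjusted p = 0.492) or TE versus SE (0.13 ± 0.41, adjusted p = 0.954). The order was thus SF, TF, TE and SE, in which only the step between TF and TE passed the test.

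**Figure D1:**
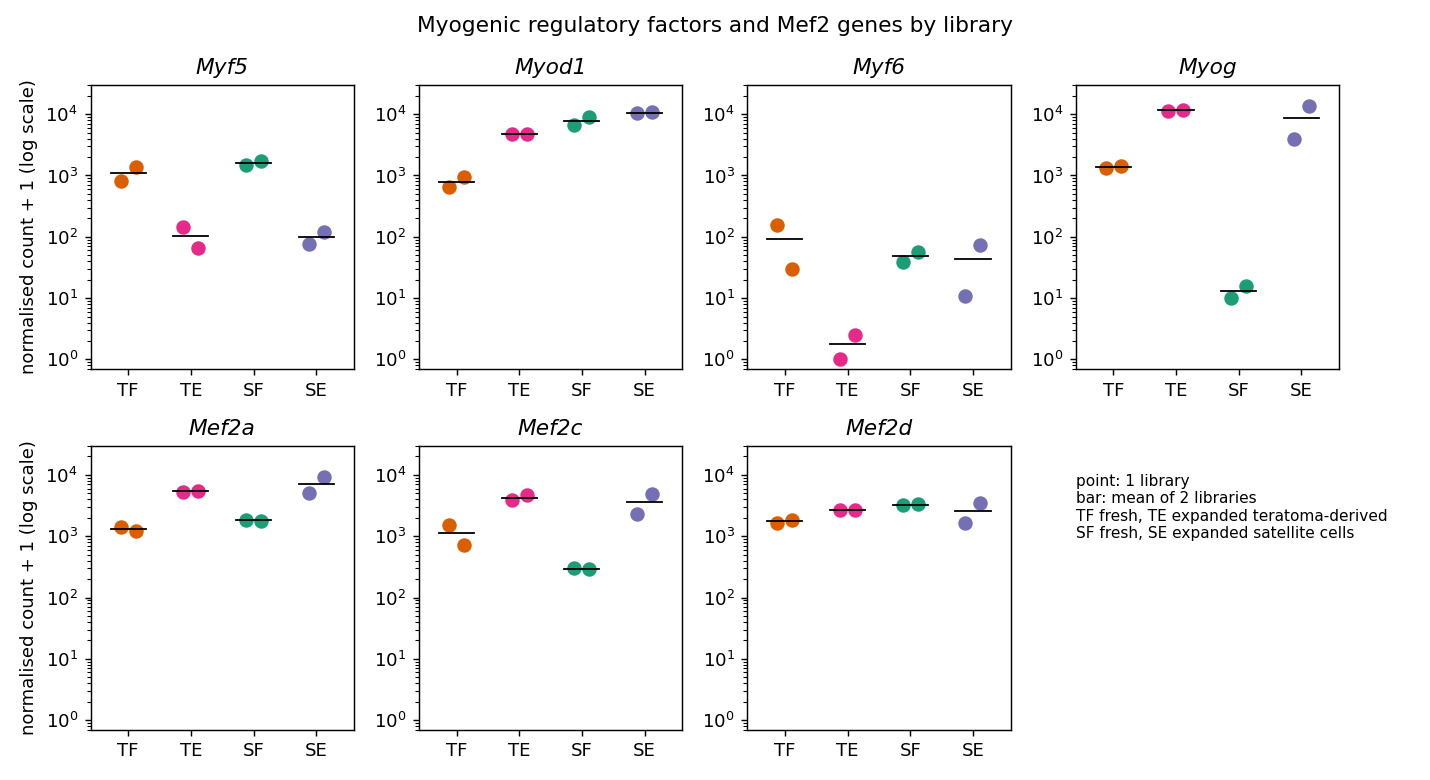
Normalised counts plus 1 on a log axis for the 7 genes, with 1 point per library and a bar at the mean of the 2 libraries of TF, TE, SF and SE. Myf5 sat between 802 and 1724 in the 4 fresh libraries and at 144 or below in the 4 expanded ones, and Myog was at 14.8 or below only in SF.

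Myod1, the other commitment factor and the classic marker of activated satellite cells, was lowest in freshly sorted teratoma progenitors. It stood at 637 and 930 in TF, 4826 and 4818 in TE, 6768 and 8841 in SF, and 10501 and 10701 in SE. No 2 groups overlapped, and all 4 were ordered TF, TE, SF and SE from low to high. Myod1 rose 6.39-fold in TE versus TF (2.68 ± 0.24, adjusted p = 6.08e-05 by edgeR's quasi-likelihood test). It was 8.93-fold lower in TF than in SF (-3.16 ± 0.25, adjusted p = 0.000111) and 2.16-fold lower in TE than in SE (-1.11 ± 0.23, adjusted p = 0.0190). In satellite cells its expansion change of 0.63 ± 0.23 did not pass (adjusted p = 0.0516), and neither did TE versus SF (-0.48 ± 0.23, adjusted p = 0.108). The change with expansion was larger in teratoma-derived cells, with a difference of 2.05 ± 0.33 (adjusted p = 0.00359). Leaving out TE replicate 1 or 2 ended the TE versus SE call while the log2 fold change stayed at -1.10 and -1.11. The Myod1 change in SE versus SF passed without the filter on low counts (adjusted p = 0.0250), with a replicate block (adjusted p = 0.0407) and without SF replicate 2 (0.88, adjusted p = 0.0191).

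Myf6, the factor of maturing fibers, was scarce in every group. Its estimated counts were 117 and 23 in TF, 30 and 49 in SF and 14 and 86 in SE, but 0 and 2 in TE. The normalised levels were 152 and 28.3 in TF, 38.2 and 55.9 in SF, and 10.01 and 73.8 in SE, so TF, SF and SE overlapped one another and only TE stood below all of them. As 3 counts is taken as the limit of detection, Myf6 was not detectable at this depth in TE beyond that limit. The count ratio was 116 for TF over TE, with an exact 95% interval of 31.6 to 971 that covers counting error only, 62.6 (16.8 to 526) for SF over TE, and 51.4 (13.9 to 430) for SE over TE. The test passed for TE versus TF (adjusted p = 0.0177) but not for TE versus SE (adjusted p = 0.0783) or for the difference between the expansion changes (adjusted p = 0.0600). The TE versus TF call was lost without TF replicate 1 (adjusted p = 0.0896) or TE replicate 1 (adjusted p = 0.0751). Neither SE versus SF (0.02, adjusted p = 0.993) nor TF versus SF (1.09 ± 1.26, adjusted p = 0.581) passed, and the TF and SE replicates were far apart. Myf6 and Myf5 are neighbors on chromosome 10 (Myf6 at chr10:107492853-107494737, Myf5 at chr10:107482908-107486134, both on the - strand of GRCm38 in GENCODE M21), with 6718 bases between them.

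Myog, which drives differentiation, separated freshly isolated satellite cells from all other groups. It had 7 and 13 estimated counts in SF, or normalised levels of 8.92 and 14.8, against 1328 and 1449 in TF, 11175 and 11838 in TE, and 3993 and 13510 in SE. SF lay below every other library, TF lay between SF and the expanded cells, and TE fell inside the range of SE. Myog rose 8.61-fold in TE versus TF (3.11 ± 0.48, adjusted p = 0.00124 by edgeR's quasi-likelihood test) and 825-fold in SE versus SF (9.69 ± 0.69, adjusted p = 9.28e-06). Already in fresh cells it was 128-fold higher in TF than in SF (6.997 ± 0.64, adjusted p = 0.000179), and the difference between the expansion changes was -6.58 ± 0.77 (adjusted p = 0.000832), the smaller change being in teratoma-derived cells. TE versus SE did not pass (0.41 ± 0.44, adjusted p = 0.690), although it did without SE replicate 2 (1.56, adjusted p = 0.000747). The SE libraries differed over 3-fold for this gene, and the SE versus SF change was 10.3 without SE replicate 1 and 8.56 without SE replicate 2, with the difference between the expansion changes at -7.20 and -5.45. The summed mature fiber markers were also higher in SE replicate 2 (148800) than in SE replicate 1 (59300), and their part in these values was not tested.

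Within a library, counts per kilobase of transcript allow the 4 factors to be set beside each other. Myod1 made up 83.0% and 84.4% of the family in SF, where Myf5 gave 16.2% and 14.7% and Myog 0.136% and 0.176%. The fresh teratoma progenitors held a more even mixture, with Myog at 51.2% and 45.2%, Myf5 at 22.2% and 30.5%, and Myod1 at 19.7% and 23.3%. After expansion Myog made up 73.7% and 75.1% in TE and 32.0% and 60.6% in SE, and Myod1 made up 25.6% and 24.6% in TE and 67.5% and 38.6% in SE. Myf5 was at or below 0.681% in all 4 expanded libraries, and Myf6 was at 6.93% and 1.04% in TF and at or below 0.786% in the other groups. Expanded cells of both origins thus held mainly Myod1 and Myog in different proportions, and the Myog to Myod1 ratio of estimated counts was 2.32 and 2.46 in TE but 0.380 and 1.26 in SE. That ratio was 2.08 and 1.56 in TF, near its value in TE, and 0.00132 and 0.00168 in SF.

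**Figure D2:**
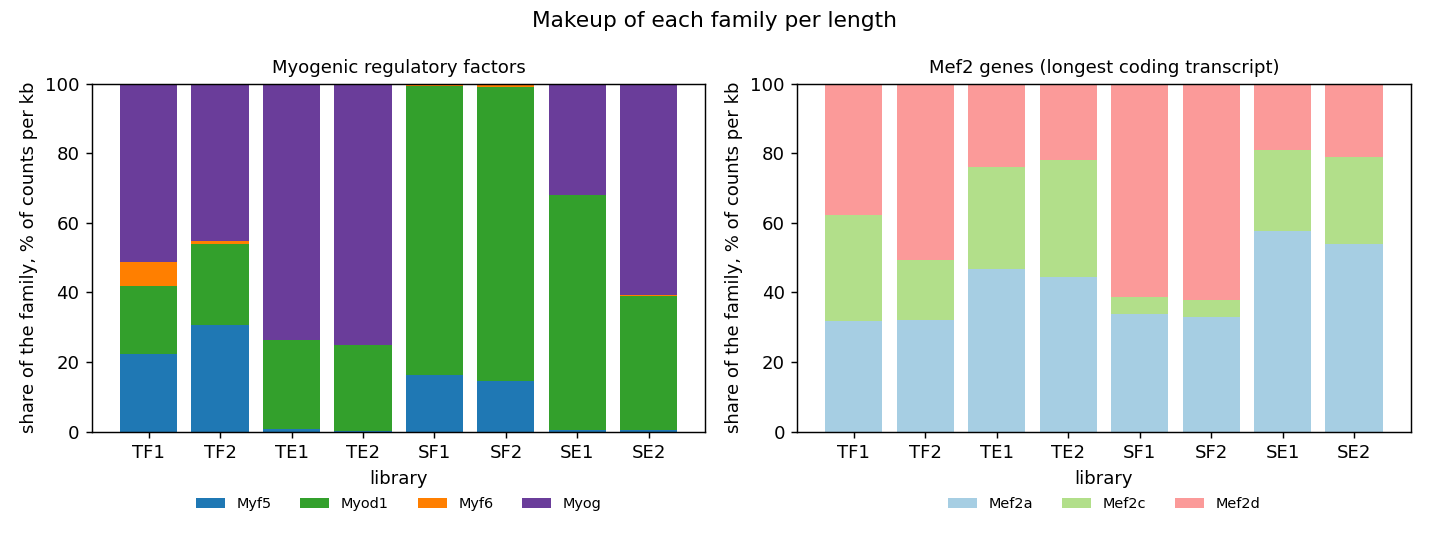
Share of each gene in its family by library, in % of counts per kilobase, for the 4 myogenic regulatory factors (left) and the 3 Mef2 genes on their longest coding transcript (right). Myod1 made up over 80% of the left bars in both SF libraries, and Mef2d was the largest part of the right bars in SF at 61.4% and 62.3%.

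Mef2a, a broadly expressed MEF2 gene that is active in myoblasts, rose with expansion to a like extent in both kinds of cell. Its levels were 1428 and 1195 in TF, 1832 and 1792 in SF, 5353 and 5485 in TE, and 5029 and 9188 in SE. All fresh libraries lay below all expanded ones, and TE lay inside the range of SE. The rise was 4.29-fold in TE versus TF (2.10 ± 0.28, adjusted p = 0.000501 by edgeR's quasi-likelihood test) and 4.49-fold in SE versus SF (2.17 ± 0.28, adjusted p = 0.000249). The difference between the rises was -0.06 ± 0.38 (adjusted p = 0.986). TF versus SF (-0.31 ± 0.27, adjusted p = 0.449) and TE versus SE (-0.37 ± 0.26, adjusted p = 0.499) did not pass, so in the order TF, SF, TE and SE the step from SF to TE was the 1 that did (1.80 ± 0.27, adjusted p = 0.000637).

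Mef2c, the MEF2 gene most tied to muscle differentiation and itself a target of MYOG, followed Myog. It stood at 301 and 292 in SF, 1551 and 731 in TF, 3837 and 4676 in TE, and 2287 and 4861 in SE. SF was below every other library, the TF replicates differed over 2-fold without reaching the expanded cells, and TE lay inside the range of SE. Mef2c rose 3.88-fold in TE versus TF (1.96 ± 0.40, adjusted p = 0.00640 by edgeR's quasi-likelihood test) and 13.8-fold in SE versus SF (3.79 ± 0.44, adjusted p = 0.000141), and it was 4.30-fold higher in TF than in SF (2.10 ± 0.41, adjusted p = 0.00621). Without TF replicate 1 the first change was 2.62 and the last 1.47, and without SE replicate 2 the SE versus SF change was 3.15. The difference between the expansion changes was -1.83 ± 0.56 and did not pass (adjusted p = 0.0581), but it passed with DESeq2 (adjusted p = 0.0207) and without TF replicate 2 or SE replicate 1 (adjusted p = 0.0131 and 0.00154). TE versus SE was 0.27 ± 0.39 (adjusted p = 0.790).

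Mef2d, a broadly expressed family member that is among those active early in differentiation, was the steadiest of the 7 genes. Its levels were 1662 and 1849 in TF, 2667 and 2632 in TE, 3252 and 3299 in SF, and 1615 and 3482 in SE. The SE libraries lay below and above all 6 others, whose replicates lay close together in the order TF, TE and SF. None of the 5 comparisons passed: the change was 0.65 ± 0.30 in TE versus TF (adjusted p = 0.145), -0.17 ± 0.30 in SE versus SF (adjusted p = 0.673), -0.74 ± 0.30 in TF versus SF (adjusted p = 0.109), 0.08 ± 0.30 in TE versus SE (adjusted p = 0.976) and 0.82 ± 0.43 in the difference (adjusted p = 0.245). Both SE libraries bore on these calls: without SE replicate 1 or 2 the TE versus TF change passed (adjusted p = 0.0110 in both cases) and so did TF versus SF (adjusted p = 0.00708 and 0.00623). Without SE replicate 2, Mef2d also passed in SE versus SF (-0.82, adjusted p = 0.00935), in TE versus SE (0.745, adjusted p = 0.0477) and in the difference (1.48, adjusted p = 0.00220). The fits restricted to the groups compared passed for TE versus TF (adjusted p = 0.00435) and TF versus SF (adjusted p = 0.0195).

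Per kilobase of the longest coding transcript, Mef2d made up 61.4% and 62.3% of the 3 Mef2 genes in SF, Mef2a made up 57.8% and 53.9% in SE and 46.7% and 44.6% in TE, and Mef2c gave 4.88% and 4.74% in SF against 29.5% and 33.5% in TE. The order within a library depended on the transcript length used, since Mef2c has 27 annotated coding transcripts with a median of 1060 bases and a longest of 6277. On median lengths Mef2c was the largest part in TE, at 53.9% and 58.5%, and in SE, at 45.7% and 48.4%, while Mef2d remained the largest in SF at 55.3% and 56.2%. The ratio of Mef2c to Mef2d estimated counts, which does not use length when compared between libraries, was 0.0925 and 0.0885 in SF, 0.934 and 0.395 in TF, 1.44 and 1.78 in TE, and 1.42 and 1.40 in SE. Mef2b, the fourth family gene, was low, at 38.9 and 23.1 in TE, 12.3 in 1 TF library, 3.82 in 1 SF library and 0 in the 4 others, and passed in none of the 5 comparisons.

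Across the 5 main comparisons, the members were called most often with expansion, and so were all tested genes. In TE versus TF, 6 of the 7 passed, 4 higher and 2 lower, where 26.1% of all tested genes passed (9.86% higher and 16.2% lower). In SE versus SF, 4 passed, 3 higher and 1 lower, against 40.7% of all genes (20.9% and 19.8%). The members' median change was 1.96 and 0.63 in these comparisons, beside -0.18 and -0.23 over all genes. Between fresh cells, TF versus SF, 3 members passed (2 higher and 1 lower), against 24.2% of all genes (15.1% and 9.13%, that is 2655 higher and 1606 lower, or 2110 and 1943 with median-ratio scaling and 2473 and 2601 with DESeq2). Between expanded cells only Myod1 passed, lower in TE, against 7.21% of all genes (3.15% higher and 4.07% lower). No member passed in TE versus SE without TE replicate 1 or 2, and 3 did without SE replicate 2. The difference between the expansion changes passed for Myod1 and Myog, against 14.3% of all genes (4.7% higher and 9.62% lower), and for 4 members without SE replicate 1 or TF replicate 2. The counts over all genes moved most when these libraries were left out: those of TE versus TF were 2759 and 2739 without TE replicate 1 and 2 (4581 with all), those of TF versus SF 2639 and 2671 without TF replicate 1 and 2 (4261 with all), those of TE versus SE 666 and 653 without TE replicate 1 and 2 (1268 with all), and those of the difference 1473 and 1467 without TE replicate 1 and 2 (2517 with all).

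**Figure D3:**
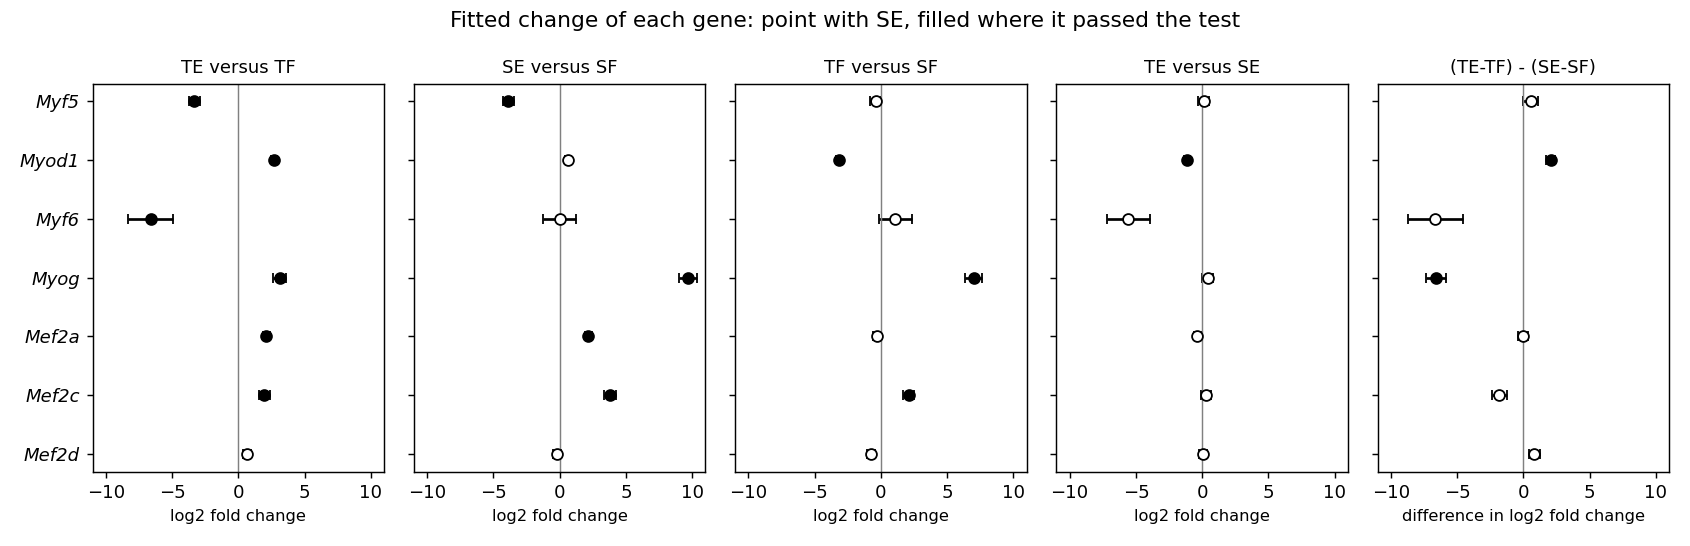
Fitted log2 fold change of each gene with its SE in 4 comparisons and, in the last panel, the difference between the changes with expansion in the 2 kinds of cell. Filled points passed the test, and TE versus SE had 1 filled point, Myod1 at -1.11.

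The crossed pairs complete the order of the groups. In TF versus SE, 5 members passed, with Myf5 higher in TF (3.46) and Myod1 (-3.79), Myog (-2.69), Mef2a (-2.47) and Mef2c (-1.68) lower, against 23.6% of all genes (14.5% and 9.16%). Without SE replicate 2 the Myog change was -1.55 and that of Mef2c -1.03, and without TF replicate 2 Mef2c was no longer called (adjusted p = 0.0588). In TE versus SF, 5 passed, with Myog (10.1), Mef2c (4.06) and Mef2a (1.80) higher and Myf5 (-3.73) and Myf6 lower, against 46.6% of all genes (23% and 23.6%). The Myf5 change there was -4.40 without TE replicate 1, and the Myf6 call was lost without it (adjusted p = 0.0848). These pairs use the same libraries as the main comparisons.

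The E proteins Tcf3, Tcf4 and Tcf12, the obligate partners of the myogenic factors, changed in opposite directions. In teratoma-derived cells Tcf4 fell with expansion from 5144 and 5644 to 1680 and 1754 (-1.60 ± 0.18, adjusted p = 0.000188 by edgeR's quasi-likelihood test), and Tcf3 went from 1427 and 1642 to 2676 and 2495 (0.81 ± 0.24, adjusted p = 0.0311). In satellite cells Tcf3 rose from 640 and 902 to 3039 and 2185 (1.95 ± 0.24) and Tcf12 from 1360 and 1371 to 3032 and 3622 (1.48 ± 0.18), while Tcf4 stood at 3710 and 3769 in SF and 2559 and 2952 in SE without passing. All 3 were higher in TF than in SF, beside 15.1% of all genes, and none passed in TE versus SE, beside 7.21%. The difference between the expansion changes passed for Tcf3 (-1.14), Tcf4 (-1.35) and Tcf12 (-0.99), all 3 lower, beside 9.62% of all genes. Calls of this list were fragile: for every gene the call of that difference was lost when 1 of several libraries was left out, with adjusted p up to 0.180 for Tcf3, 0.0627 for Tcf4 and 0.175 for Tcf12. The Tcf3 call in TE versus TF was lost without either TF or TE library (adjusted p up to 0.169), and that of Tcf4 in TF versus SF without 5 of the 8 libraries in turn, for example without TF replicate 2 (adjusted p = 0.159).

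Inhibitors of the myogenic factors mostly fell with expansion of teratoma-derived cells. Of the 18 listed, 12 fell and 2 rose in TE versus TF, beside 16.2% and 9.86% of all genes. The list median there was -1.72 beside -0.18 over all genes. In SE versus SF 9 fell and 4 rose, beside 19.8% and 20.9% (median -0.60 beside -0.23). Msc, the repressor musculin that competes with MYOD1 at E-boxes, stood at 501 and 471 in TF and 2115 and 2821 in SF and at 0 counts in all 4 expanded libraries, at least 213-fold lower in TE than in TF and at least 1046-fold lower in SE than in SF against a limit of 3 counts per library. Twist1 and Twist2, which also block MYOD1, were low after expansion: Twist1 was at 678 and 638 in TF, 21.7 and 60.1 in TE, 131 and 103 in SF, and 0 and 6.01 in SE. Twist2 went from 44.1 and 135 in TF and 53.5 and 208 in SF to 0 in both TE libraries and at most 2.86 in SE. The Twist2 call in SE versus SF was lost without SF replicate 2 (adjusted p = 0.0530), and the Twist1 call in TF versus SF without any 1 of the TF or SF libraries (adjusted p up to 0.0780).

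The ID proteins, which sequester E proteins away from the myogenic factors, differed between expanded cells of the 2 origins. Id2 stood at 872 and 503 in TF and 656 and 658 in SF, but at 64.4 and 33.9 in TE and 1869 and 1036 in SE. It fell in TE versus TF (-3.75 ± 0.43, adjusted p = 0.000226 by edgeR's quasi-likelihood test) and rose in SE versus SF (1.33 ± 0.38, adjusted p = 0.0186), with a difference of -5.08 ± 0.57 (adjusted p = 0.000666). Id4 was at 241 and 353 in TF, 2.25 and 0.771 in TE, 483 and 368 in SF, and 52.2 and 12.9 in SE, and Id3 at 1093 and 1368, 165 and 251, 3152 and 3437, and 1812 and 1071 in the same order. TE was lower than SE for Id2 (-4.86), Id3 (-2.77) and Id4 (-4.31), and also for Id1 (-2.35), which was named after its values were seen and stood at 206 and 160 in TE and 1139 and 758 in SE. The Id4 call in TE versus SE was lost without TE replicate 2 (adjusted p = 0.0628), and its call in the difference without any of 5 libraries in turn (adjusted p up to 0.0919). Of the 18 inhibitors 3 were higher and 6 lower in TE versus SE, beside 3.15% and 4.07% of all genes, and fewer were called without TE replicate 2. In the difference 1 was higher and 6 lower, beside 4.7% and 9.62%, and more were called without SE replicate 2.

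**Figure D4:**
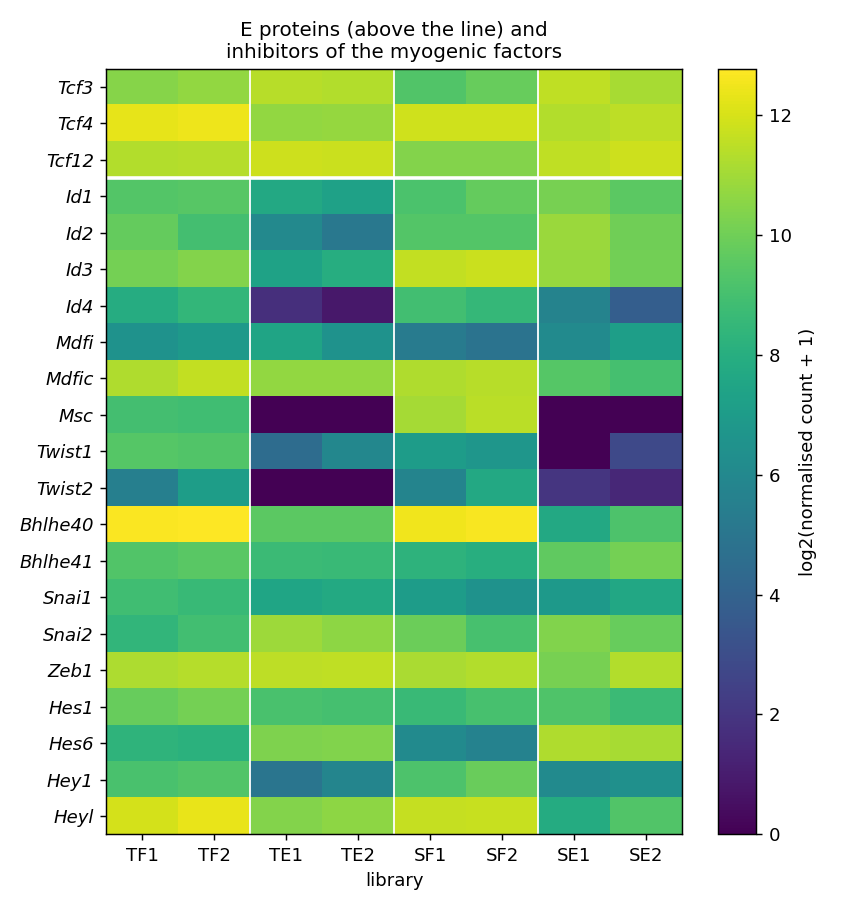
Log2 of the normalised count plus 1 for the 3 E proteins, above the white line, and the 18 listed inhibitors in each of the 8 libraries. Msc was at 0 in TE and SE, and Id1, Id2, Id3 and Id4 were darker in both TE libraries than in both SE libraries.

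Some listed inhibitors rose instead. Hes6, a HES family member known to oppose HES1 and to favor differentiation, went from 318 and 287 in TF to 1267 and 1296 in TE (2.14 ± 0.20, adjusted p = 7.09e-05 by edgeR's quasi-likelihood test) and from 67.5 and 50.2 in SF to 2464 and 2213 in SE (5.51 ± 0.24, adjusted p = 1.26e-06). The difference of -3.37 ± 0.29 passed (adjusted p = 0.000196), and Hes6 was also higher in TF than in SF (2.52). Bhlhe41, a repressor that binds MYOD1, passed only in satellite cells, from 301 and 258 in SF to 813 and 1087 in SE, and stood at 623 and 733 in TF and 412 and 406 in TE, with a difference between the changes of -2.64 ± 0.34 (adjusted p = 0.00123). Snai1, a zinc finger repressor of E-box sites, was higher in TF (465 and 389) than in SF (134 and 89.0) with a change of 2.10 ± 0.40. Its levels were lower in TE than in TF, at 182 and 213, and were 117 and 200 in SE. Snai2, another listed inhibitor, was named after its values were seen. It stood at 341 and 488 in TF, 1906 and 1569 in TE, 957 and 541 in SF, and 1298 and 886 in SE. In TF versus SF, 5 of the 18 inhibitors were higher and 2 lower, beside 15.1% and 9.13% of all genes, and fewer were called without TF replicate 1 or 2.

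Most regulators of MEF2 activity that passed were lower after expansion. Of the 13 listed repressors and kinases, 5 fell and none rose in TE versus TF, where 16.2% of all genes fell and 9.86% rose. The list median there was -0.46 beside -0.18 over all genes. In SE versus SF the median was -1.19 beside -0.23, and 6 fell and 1 rose, beside 19.8% and 20.9% of all genes. The 1 that rose was Mapk7, a kinase that activates MEF2 proteins (1.06 ± 0.27, adjusted p = 0.0118), named after its values were seen. Sik1, a salt-inducible kinase that phosphorylates class IIa histone deacetylases and has been tied to MEF2 activity in muscle, stood at 15519 and 17818 in SF, 4758 and 3844 in TF, 2151 and 2189 in TE, and 2702 and 4340 in SE. It was lower in TF than in SF (-1.80 ± 0.25, adjusted p = 0.00129 by edgeR's quasi-likelihood test), and its TE versus TF call (-0.93) was lost without TF replicate 1 or either TE library (adjusted p up to 0.148). Sik3, a related kinase, fell in SE versus SF from 3444 and 4109 to 832 and 616 (-2.19 ± 0.23) with a difference between the expansion changes of 1.73 ± 0.32 (adjusted p = 0.00702). Nfatc1, a calcineurin-dependent factor that cooperates with MEF2, fell in both (-2.10 ± 0.28 and -2.97 ± 0.29), as did Prkd1, a kinase that exports the deacetylases from the nucleus (-1.98 ± 0.46 and -3.75 ± 0.50). The Prkd1 call in TE versus TF was lost without TF replicate 2 or TE replicate 1 (adjusted p = 0.0526 and 0.108). Hdac9, which is both a MEF2 repressor and a MEF2 target and stands in both lists, went from 132 and 106 in TF to 33.7 and 29.3 in TE (-1.86 ± 0.59), a call lost without any 1 of these 4 libraries (adjusted p up to 0.187). In TF versus SF 2 of the 13 were higher and 5 lower, beside 15.1% and 9.13% of all genes. In TE versus SE 1 was higher and none lower, beside 3.15% and 4.07%. Hdac7 was the 1 that passed in TE versus SE (1.01 ± 0.24, adjusted p = 0.0342), and its call was lost without TE replicate 1 or 2 or SE replicate 2 (adjusted p up to 0.202).

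Coactivators showed the largest difference by origin in Vgll2, a TEAD cofactor of the muscle lineage. Vgll2 stood at 1715 and 2683 in SF and fell to 65.1 and 57.5 in SE (-4.97 ± 0.40, adjusted p = 1.90e-05 by edgeR's quasi-likelihood test), whereas it rose from 113 and 235 in TF to 725 and 733 in TE (2.12 ± 0.35, adjusted p = 0.00206). The difference was 7.09 ± 0.53 (adjusted p = 9.19e-05), and TE was 3.59 ± 0.38 above SE. Without TF replicate 2 the TE versus TF change of Vgll2 was 2.78. Vgll3, a related cofactor, rose in TE versus TF from 609 and 881 to 3425 and 3307 (2.23 ± 0.31) with a difference of 2.34 ± 0.43 (adjusted p = 0.00652). Its call in TE versus SE (1.16, adjusted p = 0.0479) was lost without either TE library, SF replicate 1 or SE replicate 1 (adjusted p up to 0.143). Rbm24, an RNA-binding protein that controls muscle splicing and stabilizes Myog mRNA, rose in both, from 504 and 561 to 2733 and 2821 in teratoma-derived cells (2.44 ± 0.40) and from 136 and 138 to 1721 and 4911 in satellite cells (4.79 ± 0.45). Without SE replicate 2 the second Rbm24 change was 3.84. In all, 5 of the 14 coactivators rose and 1 fell in TE versus TF, beside 9.86% and 16.2% of all genes. In SE versus SF 6 rose and 6 fell, beside 20.9% and 19.8%. In TF versus SF 3 were higher and 2 lower, beside 15.1% and 9.13%. In TE versus SE 2 were higher and none lower, beside 3.15% and 4.07%. In the difference 4 were higher and 2 lower, beside 4.7% and 9.62%.

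Of 14 listed factors upstream of the myogenic regulatory factors, 13 were tested, and Msgn1 was not. Pax7, the satellite cell transcription factor, fell with expansion from 3066 and 4913 to 1503 and 1241 in teratoma-derived cells (-1.49 ± 0.27) and from 4047 and 4582 to 1743 and 1174 in satellite cells (-1.38 ± 0.27), and was named after its values were seen. Pax3 and Lbx1, factors of the limb and migrating muscle precursors, were nearly missing from teratoma-derived cells. Lbx1 stood at 35.1 and 61.5 in TF and 2.995 and 2.31 in TE, against 517 and 646 in SF and 772 and 571 in SE, and was lower in TE than in SE (-7.90 ± 0.50, adjusted p = 4.07e-05 by edgeR's quasi-likelihood test). Pax3 stood at 11.7 and 8.61 in TF, 5.99 and 0 in TE, 218 and 185 in SF, and 280 and 146 in SE. In TE versus SE, 3 of 13 passed, all lower, of which Tbx1 (-1.43) lost its call without TE replicate 1 or 2 or SE replicate 2 (adjusted p up to 0.269). Over all genes 3.15% were higher and 4.07% lower in that comparison. Over the list 4 rose and 4 fell in TE versus TF, beside 9.86% and 16.2% of all genes. In SE versus SF 7 rose and 4 fell, beside 20.9% and 19.8%. In TF versus SF 5 were higher and 2 lower, beside 15.1% and 9.13%. In the difference 4 were lower and none higher, beside 9.62% lower and 4.7% higher.

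Genes known as targets of the myogenic regulatory factors rose with expansion. Of 32 listed targets, 28 rose and none fell in TE versus TF, beside 9.86% and 16.2% of all genes. In SE versus SF 29 rose and none fell, beside 20.9% and 19.8%. The medians were 2.39 and 5.29, beside -0.18 and -0.23 over all genes. The list holds Myog and Mef2c, which are among the 7 members, and Acta1, Ckm and Tnnt3, which are also among the mature fiber markers. Myh3, the embryonic myosin heavy chain, stood at 47.1 and 2.28 in SF, 3809 and 1760 in TF, 62889 and 66296 in TE, and 68049 and 127228 in SE. Its change was 4.59 ± 0.70 in TE versus TF (adjusted p = 0.00118 by edgeR's quasi-likelihood test; 5.28 without TF replicate 1) and 12.2 ± 0.99 in SE versus SF (adjusted p = 1.99e-05; 15.5 without SF replicate 1 and 11.3 without SF replicate 2). Mymx, the fusion peptide myomixer, was at 22.1 and 29.5 in TF, 383 and 438 in TE, 1.27 and 0 in SF, and 178 and 305 in SE. Tnnc1, the slow and cardiac troponin C, stood at 260 and 127 in TF and 10581 and 10900.4 in TE (5.85 ± 0.76, and 6.48 without TF replicate 1).

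Already among fresh cells the targets were higher in teratoma progenitors. In TF versus SF 24 of 32 were higher and 2 lower, beside 15.1% and 9.13% of all genes (median 2.48 beside 0.08 over all genes). Between expanded cells 2 were higher and 3 lower in TE, beside 3.15% and 4.07% of all genes (median -0.15 beside 0.00). The largest called change was in Cdkn1c, the cell cycle inhibitor p57, at 15385 and 14316.5 in TE and 439 and 2223 in SE (3.499 ± 0.61, adjusted p = 0.00844 by edgeR's quasi-likelihood test, with 2.76 without SE replicate 1 and 5.11 without SE replicate 2). Neb, Dmpk and Chrna1, which encode nebulin, a muscle kinase and an acetylcholine receptor subunit, were lower in TE (-1.56, -1.23 and -1.04), and all 3 calls were lost without TE replicate 1 or 2 (adjusted p from 0.055 to 0.155). This count of 5 targets in TE versus SE was 1 without TE replicate 1 or 2 and 11 without SE replicate 2. The difference between the expansion changes passed for 20 targets, 19 of them with the smaller change in teratoma-derived cells. Over all genes 14.3% passed, 4.7% higher and 9.62% lower. Among the 19 were Myh8 (-8.41) and Myh3 (-7.59), which were near the limit of detection in SF replicate 2 and moved to -7.39 and -6.66 without that library.

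Listed MEF2 targets rose as well. Of 16, 10 rose and 2 fell in TE versus TF, beside 9.86% and 16.2% of all genes. In SE versus SF 11 rose and 1 fell, beside 20.9% and 19.8%, and 6 were higher in TF than in SF, beside 15.1%. The medians were 2.24, 3.66 and 0.93, beside -0.18, -0.23 and 0.08 over all genes. Smyd1, a muscle methyltransferase, went from 180.5 and 156 in TF to 2017 and 2335 in TE (3.75 ± 0.30, adjusted p = 3.15e-05 by edgeR's quasi-likelihood test) and from 6.37 and 12.5 in SF to 1159 and 1863 in SE (7.47 ± 0.40, adjusted p = 2.49e-06; 8.10 without SF replicate 2). Nr4a1, an immediate early gene that MEF2 controls in T cells and neurons, fell in both, from 10672 and 8970 to 171 and 137 (-5.93 ± 0.44) and from 14106 and 17192 to 50.8 and 136 (-7.20 ± 0.47; -8.07 without SE replicate 2). None of the 16 passed in TE versus SE by edgeR, beside 7.21% of all genes, and 1 did with DESeq2. In the difference 5 had a smaller change in teratoma-derived cells and none a larger one, beside 9.62% of all genes lower and 4.7% higher. The 6 calls in TF versus SF were 3 in the fit of only those groups.

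**Figure D5:**
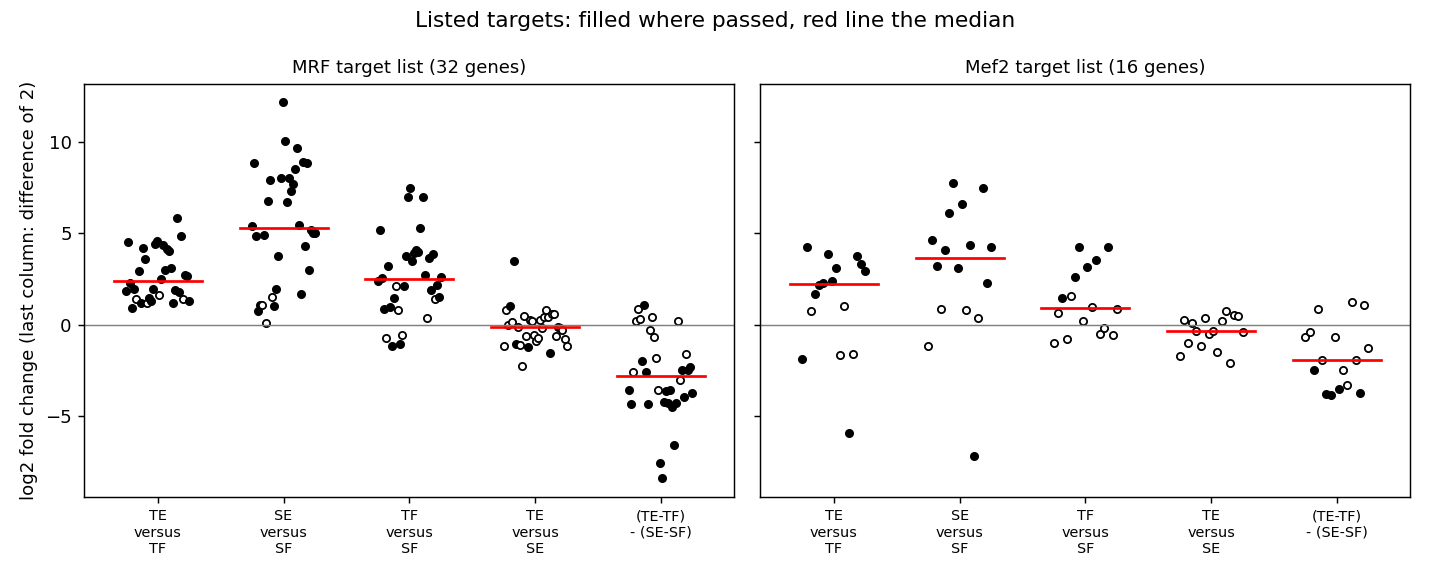
Log2 fold change of each listed target of the myogenic regulatory factors (left, 32 genes) and of MEF2 (right, 16 genes) in 4 comparisons, with the difference between the expansion changes in the last column, filled points for genes that passed and a red line at the median. The medians for the left list were 2.39 in TE versus TF and 5.29 in SE versus SF but -0.15 in TE versus SE.

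The genes whose pattern was most like each member were ranked by Pearson's r of log2(normalised count + 1) over the 8 libraries, among genes with a mean of at least 50. Because the same libraries and their 4 groups underlie all of these values, r is a description only. For Myog the closest gene was its partner Tcf12 (r = 0.998), followed by Cox4i1, a subunit of cytochrome c oxidase, and Pnmal2 (0.996 and 0.994). For Mef2c they were Tmem181a, Mapk6 and Plekho1 (0.993, 0.992 and 0.991), and for Mef2a Emc1, Txlnb and Tmem38a (0.993, 0.989 and 0.988), of which Tmem38a encodes a channel of the muscle calcium store. Myf5 was closest to Slc4a4, Gbp5 and Crispld2 (0.994, 0.992 and 0.991), and Myod1 to Usp19, Snord47 and Sytl2 (0.996, 0.991 and 0.985). Myf6 was closest to Vsir, Ctsf and Maf (0.990, 0.964 and 0.952), and Mef2d to Entr1, 3632454L22Rik and Mapk8ip3 (0.969, 0.960 and 0.954). Among the members themselves the highest r was 0.956, between Myog and Mef2c, and the lowest was -0.905, between Myf5 and Mef2c.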

How the data were processed

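Libraries were made from total RNA with a stranded kit for low input. Per the labels, the submitters' processing notes name CASAVA, kallisto 0.44.0 and the mouse build GRCm38 (mm10). The authors deposited 1 table of estimated counts per gene symbol and library, without normalization, and all of its 8 library columns were used. Between 74.4% and 84.4% of a library's values were whole, and all were rounded here. Reads shared by similar transcripts may have been divided by the estimation.

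Genes were filtered with filterByExpr (17582 kept of 24980), scaled by TMM and fitted with edgeR 4.0.16 in R 4.3.3 (quasi-likelihood, 4 groups, no block, common dispersion 0.233). Calls needed an adjusted p below 0.05 and a fold above 1.25. SE was computed as the absolute log2 fold change divided by the square root of F. Levels used median-ratio size factors, and 3 counts was taken as the limit of detection. Gene coordinates and lengths were from GENCODE M21, matched by symbol. Alternatives were median-ratio scaling, no filter, DESeq2 1.42.0, only the groups compared, a replicate block, glmTreat against 1.25-fold and each library left out. The fitting scripts were tested on simulated data. P-values rest on the spread between the 2 libraries within each group, estimated over all 4 groups together and drawn toward that of other genes. They do not measure the spread of the compared groups alone.

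The members, gene lists, tests and alternatives were chosen with earlier results of these data known. Named were all members, the 3 genes most like each, and from each list all genes if there were at most 3, otherwise up to 4 called genes per comparison with a mean of at least 50 and the largest change. Not every gene so selected is described, and 1 item is not reported here.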

Additional observations from a re-analysis of the deposited data

Results flagged for a closer look

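Results are given here where the change with expansion differed between teratoma-derived and satellite cells, by the test of that difference (TE minus TF, less SE minus SF, on the log2 scale; by edgeR at an adjusted p under 0.05). The lists are partial, since they hold the members, the genes chosen by the rule on named genes and Id1. Of the listed genes that passed but were not chosen by that rule, Mdfic (1.22) was the 1 inhibitor and Chrnb1 (1.07) the 1 target of the myogenic regulatory factors with a positive difference, and both were named after their values were seen. With 2 libraries per group outlying libraries were not looked for.

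Among the members this held for Myod1 (2.05) and Myog (-6.58). Among E proteins it held for Tcf3 (-1.14), Tcf4 (-1.35) and Tcf12 (-0.99). Among inhibitors it held for Id1 (-2.39), Id2 (-5.08), Id3 (-1.50), Id4 (-3.95), Hes6 (-3.37) and Bhlhe41 (-2.64).

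Among coactivators and MEF2 regulators the difference was 7.09 for Vgll2, 2.34 for Vgll3, -2.35 for Rbm24, 1.87 for the acetyltransferase gene Kat2b, -1.41 for the methyltransferase gene Prmt5 and 1.73 for Sik3. Among upstream factors it was -4.47 for Lbx1, -3.05 for Tbx1, -2.53 for Pitx3 and -2.20 for Eya2.

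Among the targets it was -8.41 for Myh8, -7.59 for Myh3, -4.52 for Mymx, -4.35 for Actc1, -4.28 for Neb, -3.98 for Tnni1, -3.86 for Lmod3, -3.83 for Klhl41, -3.72 for Smyd1, -3.53 for Myom2 and -2.01 for Chrna1. Levels in SF replicate 2 were below 3 normalised counts for Myh3, Myh8, Mymx and Lmod3.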

How the results depend on the processing

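Of 483 refits of the members' changes, 433 kept their direction and their side of the threshold, 28 gained a call, 4 lost one and 18 reversed a change that had not passed. The members called in TE versus SE, 1 in the report, were 2 with DESeq2 and 2 without the filter, and 0 to 3 with 1 library left out. Those called in the difference, 2 in the report, were 4 with DESeq2 and 4 without the filter, and 2 to 4 with 1 library left out. Reversed were Myf6 in SE versus SF (-0.17 with median-ratio scaling and with DESeq2, -0.21 with the replicate block) and Mef2a in the difference (0.0753 with median-ratio scaling and with DESeq2). With 1 library left out the ranges were Myf6 from -2.03 to 0.86 in SE versus SF, Mef2d from -0.82 to 0.31 in SE versus SF, Myf6 from -0.57 to 1.83 in TF versus SF, Myf5 from -0.56 to 0.60 in TE versus SE, Myog from -0.21 to 1.56 in TE versus SE, Mef2a from -0.74 to 0.14 in TE versus SE, Mef2c from -0.17 to 0.93 in TE versus SE, Mef2d from -0.37 to 0.745 in TE versus SE, Myf5 from -0.15 to 1.01 in the difference and Mef2a from -0.43 to 0.44 in the difference. The cause was not tested.

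Replicate numbers were not taken as pairs, since the sources used here do not say whether same-numbered libraries share a culture. Correlations of same-numbered deviations lay between -0.0264 and 0.0755. With 1 deviation per group for each gene, they cannot settle whether such libraries had a shared origin. With a replicate block, 6 members passed in TE versus TF, 5 in SE versus SF (Myod1 added), 3 in TF versus SF, 1 in TE versus SE and 2 in the difference. Median-ratio scaling moved the median of all genes by -0.19 in SE versus SF, -0.16 in TF versus SF, -0.21 in TE versus SF and 0.14 in the difference. It changed no member's call in the 5 main comparisons. Among list genes, 1594 refits kept their call and direction, 99 lost a call, 10 gained one and 7 reversed. In TE versus SE, DESeq2 called 2118 genes in all and edgeR 1268, and 2260 passed without the filter. Depth limited what could be read for Myf6, which had 0 and 2 counts in TE.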
